A study of Mus musculus with 18 samples.

Results

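Transcripts of 10 genes of glycolysis and the hypoxia response were followed in single mouse embryos that lack a DNA methyltransferase. The members are the glucose transporter Slc2a1, the glycolytic enzymes Hk2, Pfkl, Aldoa, Pgk1 and Ldha, the lactate exporter Slc16a3, the mitochondrial regulators Pdk1 and Bnip3, and the growth factor Vegfa. They were found by symbol among the 31053 mouse genes of the files, which hold 11 entries for the 10 symbols because Aldoa is listed under 2 gene identifiers. The second of these, ENSMUSG00000114515, collected 202 unique molecular identifiers (UMIs) in all kept cells, against 2690790 for ENSMUSG00000030695, and "Aldoa" below means the latter. All 11 entries passed the low-count filter in whole embryos, and in each cell class tested the 10 genes passed it whereas the second Aldoa entry did not.

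The samples were 18 single-embryo libraries of the strain 129S4/SvJae, collected at E8.5, when the first organs form, and counted with 10x Genomics 3′ chemistry. They comprised 7 wild-type (WT) embryos, 3 embryos labelled Dnmt1 null (Dnmt1 KO), 4 Dnmt3a null (Dnmt3a KO) and 4 Dnmt3b null (Dnmt3b KO). DNMT1 maintains DNA methylation through replication, and DNMT3A and DNMT3B add it de novo. Embryos were bred by natural mating of mice heterozygous for 1 of the 3 genes, the KO embryos were genotyped from the ecto-placental cone, and the null alleles were inherited, so that every tissue carried them. Dnmt3b KO 1 and 2 shared 9149 cell barcodes, and in 96.3% of 1000 shared barcodes the profiles from the 2 libraries correlated better with each other than with another barcode. These libraries were summed and counted as 1 sample (Dnmt3b KO n = 3).

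Glycolysis splits glucose into pyruvate, and cells that depend on it turn pyruvate into lactate and export it. When oxygen is short, the hypoxia-inducible factors (HIFs) escape hydroxylation by the EGLN enzymes, enter the nucleus and activate glucose transport, glycolytic enzymes, lactate export and angiogenic factors. The early organogenesis embryo is known to run on glycolysis in many tissues, to have little circulation and to contain low-oxygen regions.

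HIFs bind DNA at short sites built on the core ACGTG or GCGTG. RefSeq promoter windows (GRCm38.p6) were matched for all 10 members, and the 250 bases upstream of the first listed start were searched on both strands for ACGTG and GCGTG. At least 1 match was present in 8 of 10 members, and in 38.6% of all 32851 windows of the same length. ACGTG alone was present in 6 of 10 members and in 16.6% of all windows. Ldha and Bnip3 held 5 matches each, Slc2a1, Hk2, Slc16a3 and Pgk1 held 2, Pdk1 and Pfkl held 1, and Aldoa and Vegfa held none in this window. The palindrome CACGTG counts as 2 overlapping matches, 1 per strand. The member windows held a median of 18 CpG dinucleotides, against 6 over all windows. The stretches below belong to 6 of the 8 members that passed the test in a Dnmt1 KO cell class, and that of Vegfa shows a window without a match. Each runs 5′ to 3′ towards the first start that RefSeq lists, holds no exon annotated in GENCODE, and carries the motif matches that lie within the printed stretch in capitals.
Slc2a1, chr4:119108495-119108710, plus strand: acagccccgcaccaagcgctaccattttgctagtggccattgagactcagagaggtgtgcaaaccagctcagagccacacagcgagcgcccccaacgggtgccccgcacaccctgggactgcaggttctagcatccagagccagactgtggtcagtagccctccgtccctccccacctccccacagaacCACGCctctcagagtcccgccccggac
Pgk1, chrX:106186850-106187099, plus strand: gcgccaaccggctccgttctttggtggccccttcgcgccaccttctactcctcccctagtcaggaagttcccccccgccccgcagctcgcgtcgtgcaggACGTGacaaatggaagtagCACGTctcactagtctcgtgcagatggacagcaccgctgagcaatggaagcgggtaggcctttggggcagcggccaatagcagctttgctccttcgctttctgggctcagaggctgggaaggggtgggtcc
Ldha, chr7:46845554-46845803, plus strand: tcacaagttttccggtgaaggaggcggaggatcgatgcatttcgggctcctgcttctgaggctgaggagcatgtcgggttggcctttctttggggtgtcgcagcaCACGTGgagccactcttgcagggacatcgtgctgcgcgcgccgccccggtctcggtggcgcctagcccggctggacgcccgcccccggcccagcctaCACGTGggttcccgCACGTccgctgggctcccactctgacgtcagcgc
Pdk1, chr2:71872974-71873223, plus strand: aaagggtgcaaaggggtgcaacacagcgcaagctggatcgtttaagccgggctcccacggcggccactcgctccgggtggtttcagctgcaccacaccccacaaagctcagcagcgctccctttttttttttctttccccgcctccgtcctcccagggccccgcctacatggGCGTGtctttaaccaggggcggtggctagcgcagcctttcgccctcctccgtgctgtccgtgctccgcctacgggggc
Bnip3, chr7:138909520-138909756, minus strand: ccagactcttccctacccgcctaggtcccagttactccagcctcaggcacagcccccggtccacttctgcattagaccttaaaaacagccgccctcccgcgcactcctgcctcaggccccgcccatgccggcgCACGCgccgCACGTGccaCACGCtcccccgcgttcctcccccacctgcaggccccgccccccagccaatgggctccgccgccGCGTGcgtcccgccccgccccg
Vegfa, chr17:46032378-46032627, minus strand: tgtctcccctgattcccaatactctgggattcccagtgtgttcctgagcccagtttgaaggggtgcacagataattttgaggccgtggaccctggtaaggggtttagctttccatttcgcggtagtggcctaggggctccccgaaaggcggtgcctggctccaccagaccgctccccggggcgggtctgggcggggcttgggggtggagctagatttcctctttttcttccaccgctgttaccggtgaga
The Ldha stretch lies inside the limits of that gene in GENCODE, which begin at 46841475. These matches describe the letters in the windows and do not show that a factor binds there.

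The filters left 108630 cells: WT embryos gave 34185 of them, Dnmt1 KO embryos 6706, Dnmt3a KO embryos 33685 and Dnmt3b KO embryos 34054. The total and the Dnmt3b KO number count barcodes that Dnmt3b KO 1 and 2 share once per library. Libraries held 36606365 to 234638944 UMIs in kept cells, and median UMIs per cell ran from 4414 (Dnmt3a KO 2) to 60169 (Dnmt1 KO 1). The median mitochondrial share was 3.12% to 3.32% in the Dnmt1 KO libraries and 1.84% to 2.59% in WT. Dnmt1 counts were 15.3 CPM (counts per 1000000 UMIs of a sample) in Dnmt1 KO and 103.9 in WT, a log2 difference of -2.69. Dnmt3a counts were 9.38 CPM in Dnmt3a KO and 29.8 in WT, and were also low in Dnmt3b KO 11 (15.1) and Dnmt3b KO 12 (7.56). Dnmt3b counts at the 3′ end did not differ between Dnmt3b KO and WT beyond the spread and do not check that label. Y-linked transcripts marked 3 of 3 Dnmt1 KO, 4 of 4 Dnmt3a KO and 3 of 4 Dnmt3b KO libraries as male but only 1 of 7 WT libraries, WT 2, so that sex and genotype are largely confounded. Within groups, sex varied only through WT 2 and Dnmt3b KO 12, so fits with the Y-linked level as a covariate rest mainly on these embryos. Pgk1 is X-linked.

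Cell classes were rebuilt from the counts without using the members. Names such as gut endoderm-like rest on marker lists, and cells without a name made up 16.5% to 30.2% of WT embryos but 50.6% of Dnmt1 KO 3. Against its name, the immune-like class of Dnmt1 KO carried immune markers (7 genes summed) at 28.1 to 101 CPM, compared with 323 to 399 in WT, and erythroid markers (8 genes summed) at 10762 to 16035 CPM, compared with 2241 to 4900. Results that rest on this class are given with and without it.

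In WT embryos, every member differed between cell classes, and the members did not share one pattern. Over 17 classes with at least 25 cells in at least 3 of the 7 embryos, 103 of 170 member and class pairs passed the test (adjusted p under 0.01 against the mean of the other classes, edgeR's quasi-likelihood test with embryo as a block), 58 higher and 45 lower. Over all genes and classes, 48.4% of pairs passed (27.2 percent higher and 21.2 percent lower). Levels below are mean CPM ± SD over embryos, and log2 differences compare a class with the others after TMM scaling, so that a class rich in a few abundant transcripts, such as the erythroid-like class, can have a low CPM and a positive log2 difference.

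**Figure D1:**
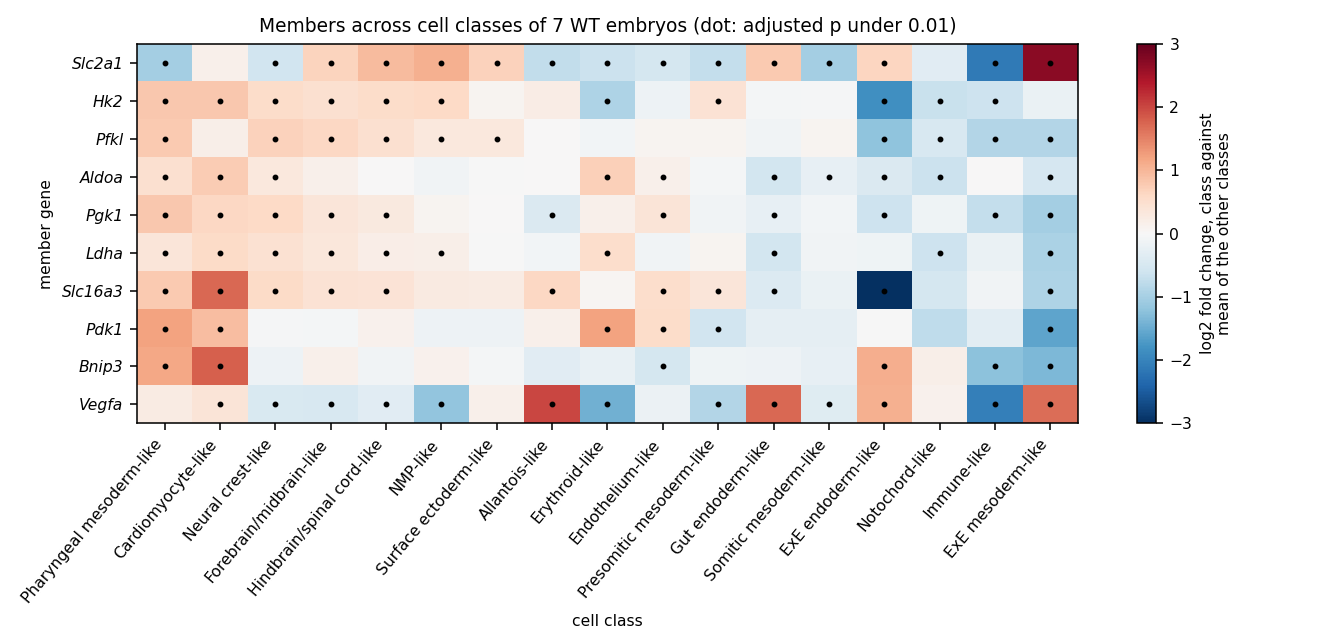
Members across the 17 cell classes of WT embryos. Rows are member genes, columns are classes, colour is the log2 fold change of a class against the mean of the others (blue lower, red higher) and a dot marks an adjusted p under 0.01. The darkest squares are Slc2a1 in ExE mesoderm-like cells (2.71) and Slc16a3 in ExE endoderm-like cells (-3.83).

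Slc2a1 encodes the facilitative glucose transporter GLUT1. Its level was 1824 ± 409 CPM in extraembryonic (ExE) mesoderm-like cells (n = 7), a log2 difference of 2.71 above the other classes (adjusted p = 1.9e-49). Neuromesodermal progenitor (NMP)-like cells followed with 652 ± 126 CPM, and the hindbrain/spinal cord-like (606 ± 126) and gut endoderm-like (559 ± 129) classes lay within 1 SD of them. The lowest level was 75.2 ± 18.9 CPM in immune-like cells (n = 3), 24.3-fold below the highest. Pharyngeal and somitic mesoderm-like cells were also low, with 173 ± 46.9 and 165 ± 60.0 CPM and log2 differences of -1.02 each.

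Of the glycolytic enzymes, Hk2, Pfkl and Pgk1 were highest in pharyngeal mesoderm-like cells, and Aldoa and Ldha in cardiomyocyte-like cells. Hk2, the hexokinase that traps glucose in the cell, was highest in pharyngeal mesoderm-like cells (120 ± 35.5 CPM, log2 difference 0.80) and cardiomyocyte-like cells (111 ± 24.9), which did not differ beyond their spread, and lowest in ExE endoderm-like cells (15.4 ± 3.82, log2 difference -1.83). Pfkl, a subunit of phosphofructokinase, ranged from 287 ± 41.1 CPM in pharyngeal mesoderm-like cells to 56.5 ± 9.23 in ExE endoderm-like cells. Pgk1, the first ATP-yielding enzyme, was at 1619 ± 267 CPM in pharyngeal mesoderm-like cells and at 446 ± 45.7 in ExE mesoderm-like cells. For all 3 of these enzymes the neural crest-like, forebrain/midbrain-like and hindbrain/spinal cord-like classes were higher than the other classes. Aldoa, the aldolase, was highest in cardiomyocyte-like cells (1560 ± 310 CPM) and lowest in ExE endoderm-like cells (538 ± 37.8), and in erythroid-like cells it stood at 994 ± 104 CPM with a log2 difference of 0.72. Ldha, which converts pyruvate to lactate, had its highest level in cardiomyocyte-like cells (2964 ± 232 CPM) and its lowest in ExE mesoderm-like cells (1085 ± 90.3), the narrowest span of the 10 at 2.73-fold.

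Slc16a3, the lactate exporter MCT4, had the widest span of the members, 43.7-fold. It was at 378 ± 38.3 CPM in cardiomyocyte-like cells (log2 difference 1.71) and at 8.66 ± 4.59 in ExE endoderm-like cells (log2 difference -3.83, adjusted p = 6.2e-47). Pdk1, the kinase that inhibits pyruvate dehydrogenase, was highest in pharyngeal mesoderm-like cells (62.4 ± 15.3 CPM) and cardiomyocyte-like cells (50.1 ± 10.0), and its level in erythroid-like cells (38.0 ± 4.56) gave the largest log2 difference, 1.22. Bnip3, a mitophagy receptor of the outer mitochondrial membrane, reached 268 ± 47.5 CPM in cardiomyocyte-like cells, 183 ± 50.6 in pharyngeal mesoderm-like cells and 127 ± 11.6 in ExE endoderm-like cells, the 3 classes in which it was higher than elsewhere. Vegfa, the main endothelial growth factor, followed another order, with 69.0 ± 8.91 CPM in allantois-like, 59.1 ± 10.4 in gut endoderm-like and 52.3 ± 12.5 in ExE mesoderm-like cells. Its lowest level was 4.41 ± 0.986 CPM, in erythroid-like cells.

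By class, cardiomyocyte-like cells had 8 members higher and 0 lower, where 28.1% of all genes were higher. Pharyngeal mesoderm-like cells had 8 higher and 1 lower, the lower one being Slc2a1, where 20.2% of genes were higher and 17.4% lower. The median log2 difference over the 10 members was 0.70 and 0.78 in these classes. In ExE mesoderm-like cells 7 members were lower and 2 were higher, Slc2a1 and Vegfa, with a median of -0.90, where 25.7% of genes were lower and 31.3% higher. Immune-like cells had 6 members lower (17% of genes), notochord-like cells 4 (14.2% of genes) and somitic mesoderm-like cells 3 (16.5% of genes), and in these classes 0 were higher.

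Across the 17 class means, which share embryos and libraries, Aldoa and Ldha had a Pearson r of 0.86, Pfkl and Pgk1 of 0.84 and Hk2 and Slc16a3 of 0.82, whereas Vegfa and Ldha had one of -0.52. Among 15364 genes, those closest to the mean standardised profile of the members that were not members themselves were Rptor (r = 0.83), Pkm (0.83), Ankzf1 (0.83), Fam162a (0.83) and Yae1d1 (0.80). Of the members, Slc2a1 and Vegfa had r of -0.06 and -0.08 with that mean profile, to which each member contributes.

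In whole Dnmt1 KO embryos the 10 members all had lower mean counts than in WT, by 0.13 to 0.82 on the log2 scale, but none passed the test. Of all genes, 48.3% had a negative log2 difference. edgeR's quasi-likelihood test gave 0 of 10 at an adjusted p under 0.01, where 23.3% of all 18770 genes passed (12.3 percent higher and 11 percent lower). At an unadjusted p under 0.05 there were 9 of 10, where 46% of all genes passed that threshold, and DESeq2 passed 3 (Pdk1, Pfkl and Pgk1), all lower, where it passed 28.5% of all genes. Every Dnmt1 KO embryo lay below every WT embryo for 7 of 10 members, a separation found in 16.2% of all genes tested. The median log2 difference over the 11 entries was -0.37, against 0.02 over all genes. In such sums over an embryo, fewer cells of a type that expresses a gene and less RNA per cell cannot be told apart.

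**Figure D2:**
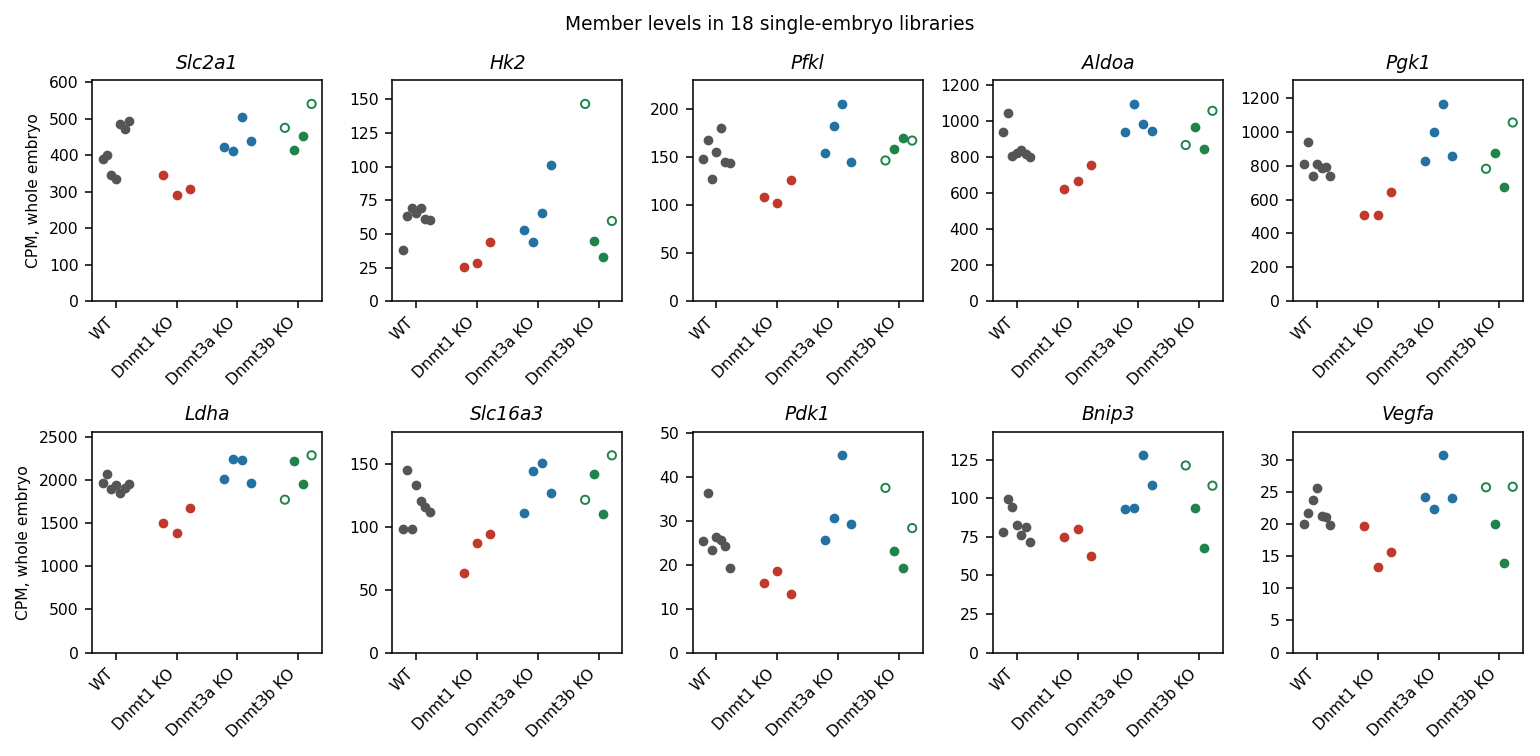
Whole-embryo levels of the 10 members. The vertical axis of each panel is CPM from 0, each point is 1 of 18 libraries grouped by genotype, and open points are Dnmt3b KO 1 and 2, which share barcodes. For Pdk1, Pfkl, Vegfa, Slc16a3, Aldoa, Pgk1 and Ldha the 3 Dnmt1 KO points lie below all 7 WT points, only just for Vegfa, whereas Dnmt3a KO and Dnmt3b KO overlap WT in every panel.

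Slc2a1 was at 346, 290 and 307 CPM in Dnmt1 KO 1, 2 and 3, and at 335 (lowest), 401 (median) and 492 (highest) in WT. Dnmt1 KO 1 was inside the WT range and the other two were below it, and the log2 difference was -0.33 ± 0.10 (SE, adjusted p = 0.0169). Hk2 was at 25.5, 28.3 and 44.2 CPM against 37.9, 63.6 and 69.1 in WT. Here Dnmt1 KO 3 lay inside the WT range, which WT 1 alone extended below 60.3 CPM, and the log2 difference was -0.82 ± 0.30 (adjusted p = 0.0435). Pfkl was at 109, 103 and 126 CPM, just below its WT range of 127 to 180 (median 148), with a log2 difference of -0.37 ± 0.11 (adjusted p = 0.0160). Aldoa was at 621, 669 and 753 CPM and separate from WT (799, 820 and 1043), with a log2 difference of -0.28 ± 0.13 (adjusted p = 0.101). Pgk1 was at 508, 511 and 644 CPM and separate from WT (737, 792 and 937), with a log2 difference of -0.46 ± 0.13 (adjusted p = 0.0123). Ldha was at 1508, 1382 and 1679 CPM and separate from WT (1847, 1943 and 2068), with a log2 difference of -0.28 ± 0.10 (adjusted p = 0.0361).

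Of the other 4 members, 3 were separate from WT in the Dnmt1 KO embryos. Slc16a3 was at 63.2, 87.4 and 94.2 CPM in the 3 Dnmt1 KO embryos and at 98.6, 116 and 146 in WT, without overlap (log2 difference -0.46 ± 0.16, adjusted p = 0.0302). Pdk1 was at 15.9, 18.5 and 13.3 CPM against 19.2, 25.4 and 36.4 in WT, without overlap (log2 difference -0.63 ± 0.20, adjusted p = 0.0211). Bnip3 was at 74.9, 80.0 and 62.7 CPM against 71.7, 81.2 and 99.6, with only Dnmt1 KO 3 below the WT range (log2 difference -0.13 ± 0.15, adjusted p = 0.515). Vegfa was at 19.775, 13.4 and 15.7 CPM, Dnmt1 KO 1 lying just under the lowest WT embryo at 19.778 (median 21.2, highest 25.6), with a log2 difference of -0.36 ± 0.15 (adjusted p = 0.0734).

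The cell makeup of the Dnmt1 KO embryos also differed from that of WT embryos. ExE ectoderm-like cells made up 4.68% to 31.1% of Dnmt1 KO and 0% to 1.76% of WT embryos, and ExE endoderm-like cells 10.1% to 28.6% and 9.21% to 19.5%. Among named cells, classes in which most members were high in WT were nearly missing, and so were some in which they were not. The 3 Dnmt1 KO embryos together had 1 cardiomyocyte-like and 2 pharyngeal mesoderm-like cells. They also had 8 somitic mesoderm-like, 9 presomitic mesoderm-like and 8 allantois-like cells, of classes with 0, 2 and 2 members higher in WT. ExE mesoderm-like cells, with 7 members lower in WT, made up 11.7% to 19.3% of Dnmt1 KO and 3.24% to 5.21% of WT embryos. Of the 6706 Dnmt1 KO cells pooled, 0 were named neural crest-like, forebrain/midbrain-like or hindbrain/spinal cord-like. Independent draws would allow up to 0.0447%, but the cells come from 3 embryos, and the limit concerns names and not cell types. Unnamed cells may include such types. Of the cells on which clusters were built, an unnamed cluster scoring best for forebrain/midbrain held 205 from Dnmt1 KO and 354 from WT. These were 17.7% and 15.8% of the unnamed cells of each group. That cluster was shallow (median UMIs 0.236 of the library median), with 1 forebrain/midbrain marker seen and a score of 1.27 against 1.17 for epiblast, so its type is unclear. One scoring best for pharyngeal mesoderm held 28 and 272 (2.42% and 12.2%). The unnamed cluster with most Dnmt1 KO cells, scoring best for presomitic mesoderm with 1 marker seen, held 495 and 3. Whole-embryo cardiomyocyte markers (8 genes summed) were lower but present, at 109 to 372 CPM against 556 to 972 in WT. So were neural crest markers (7 genes summed), at 15.03 to 20.96 against 33.9 to 44.7. Erythroid-like cells made up 0.501% to 1.68% of Dnmt1 KO embryos and 4.95% to 22.3% of WT embryos, and epiblast-like cells 9.35% to 16.6% and 0% to 0.234%. Without the ExE ectoderm-like and ExE endoderm-like cells, 4 members passed the test, all lower, where 22.8% of all genes passed (10.5 percent lower): Pdk1 (log2 difference -1.43, adjusted p = 6.0e-05), Bnip3 (-0.88, adjusted p = 0.00184), Slc16a3 (-0.58, adjusted p = 0.00164) and Pfkl (-0.37, adjusted p = 0.00575). The Slc2a1 difference was then 0.0027 (adjusted p = 0.989). With the Y-linked level as a covariate, Pdk1 (-1.18, adjusted p = 0.00051), Pgk1 (-0.82, adjusted p = 0.000786) and Slc16a3 (-0.84, adjusted p = 0.00287) passed, where 12.7% of all genes did. This covariate rests mainly on WT 2 and Dnmt3b KO 12, and WT 2 had the highest WT level of all 3 genes. The part of cell makeup and sex in the whole-embryo differences was not tested beyond these fits. The paper finds that every major cell type can form by E8.5 without these methyltransferases. It named cells by mapping to a reference atlas and added embryos of a published CRISPR data set, so its embryos and naming differ from those here. For Dnmt1 KO embryos it reports a relative underrepresentation of neural crest, brain and spinal cord cells, and a minor developmental delay. The part of this delay in the differences between Dnmt1 KO and WT, in whole embryos or within classes, was not tested. Leaving out Dnmt1 KO 3 or WT 3 brought 2 members past the test (Pfkl with Pgk1, and Pfkl with Slc2a1), and leaving out WT 4, 5 or 7, Dnmt3a KO 14 or Dnmt3b KO 12 brought 1.

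The Dnmt1 KO embryos were next compared with WT within cell classes. In 4 classes with enough cells in all 3 Dnmt1 KO embryos, 12 of 40 member and class pairs passed the test, 1 higher and 11 lower, and the median log2 difference over the pairs was -0.34. Of all gene and class pairs, 16.1% passed (7.99 percent higher and 8.08 percent lower). Without the immune-like class, 8 of 30 pairs passed, all lower, where 17.6% of all pairs passed (8.75 percent lower). Slc2a1, Bnip3 and Pgk1 each passed with a lower level in 2 classes, and Hk2 and Pfkl passed in none. For Bnip3 1 of these was the immune-like class, and without it Bnip3 passed in 1 class. The count depended on single libraries: it was 3 without Dnmt1 KO 1, 4 without Dnmt1 KO 2 or Dnmt1 KO 3 and 6 without WT 1.

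**Figure D3:**
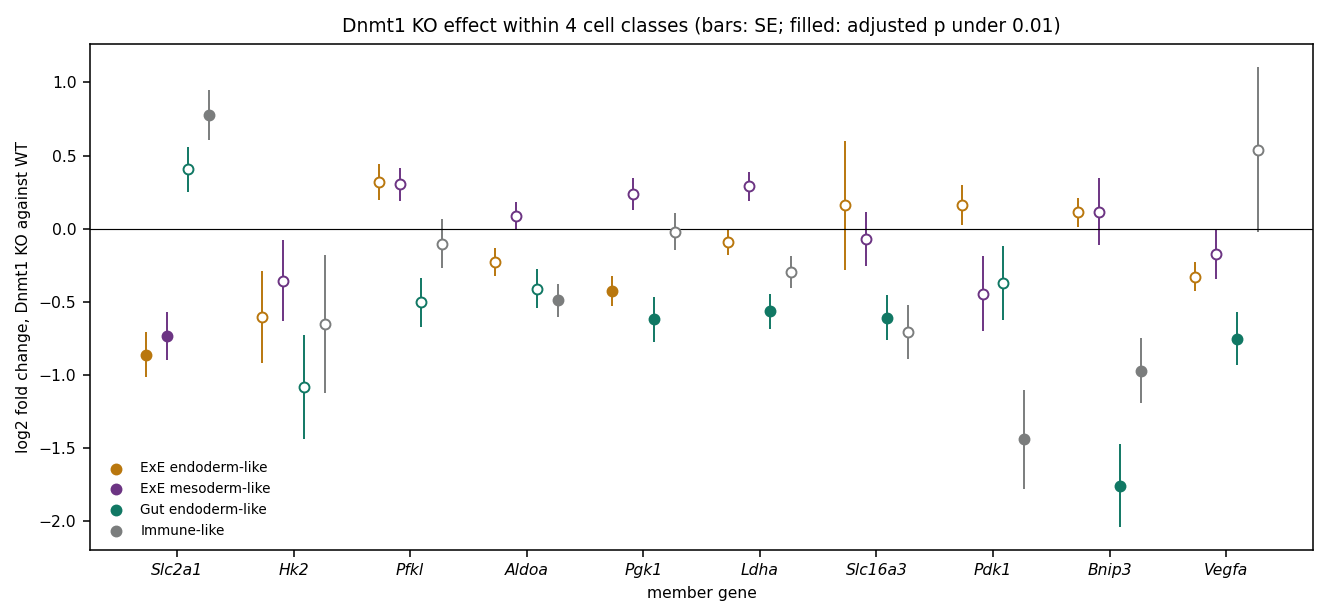
Dnmt1 KO against WT within 4 cell classes. The vertical axis is the log2 fold change with bars of 1 SE, members lie along the horizontal axis, colours are classes and filled points have an adjusted p under 0.01. Bnip3 in gut endoderm-like cells is the lowest point (-1.76), and Slc2a1 lies below 0 in both ExE classes and above 0 in the others.

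Gut endoderm-like cells had the most members that fell, 5 of 10, where 6.53% of genes were lower and 13.9% passed in all. Bnip3 fell from a WT range of 44.2 to 106 CPM (median 81.9) to 19.5, 27.0 and 19.9 CPM in Dnmt1 KO 1, 2 and 3. The groups did not overlap, and the log2 difference was -1.76 ± 0.28 (adjusted p = 0.000112). It passed the test in every fit that left out 1 library (adjusted p up to 0.00235). Ldha fell from 1224 to 1901 CPM in WT (median 1522) to 929, 899 and 992, with a log2 difference of -0.57 ± 0.12 (adjusted p = 0.00151). Vegfa fell from 47.2 to 78.4 CPM in WT (median 58.7) to 37.6, 33.5 and 26.3, with a log2 difference of -0.75 ± 0.18 (adjusted p = 0.00429). Pgk1 was at 488, 482 and 482 CPM, below every WT embryo (605 to 998, median 805), a drop of 0.62 ± 0.15 on the log2 scale (adjusted p = 0.00495). Slc16a3 was at 61.0, 48.8 and 70.8 CPM, also below every WT embryo (84.6 to 117, median 102), a drop of 0.61 ± 0.16 (adjusted p = 0.00672).

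The other gut members were Hk2 (log2 difference -1.08, adjusted p = 0.029), Pfkl (-0.51, 0.0331), Aldoa (-0.41, 0.0267), Pdk1 (-0.37, 0.306) and Slc2a1 (0.41, 0.0616), of which none passed. The median over the 10 members was -0.59, against -0.03 over all genes of the class. Leaving out Dnmt1 KO 1 or 2 ended the call for Ldha, any of the 3 Dnmt1 KO embryos the calls for Vegfa and Pgk1, WT 1 or WT 2 those for Pgk1 and Slc16a3, and Dnmt1 KO 1, Dnmt1 KO 2, WT 5 or WT 6 that for Slc16a3. The adjusted p then reached 0.0147 for Ldha, 0.0442 for Vegfa, 0.0295 for Pgk1 and 0.069 for Slc16a3. The Y-linked covariate ended the calls for Ldha (adjusted p = 0.0104), Vegfa (0.0255) and Slc16a3 (0.0287), while those for Bnip3 and Pgk1 passed with it. The Dnmt1 KO embryos had 29 to 42 cells of the class and the WT embryos 73 to 463. Their cells also carried more gut endoderm markers (6601 to 8280 CPM over 8 genes, against 2221 to 3702), more primordial germ cell markers (275 to 337 over 6 genes, against 102 to 149) and a larger mitochondrial share (3.94% to 4.64%, against 2.42% to 3.12%). Of the Dnmt1 KO reference cells of this class, the cells on which clusters were built, 95.7% came from 1 of its 2 clusters, which held 58.0% of those of WT. The part of these in the member differences was not tested.

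In ExE endoderm-like cells, which form the yolk sac lining and feed the embryo, 2 members fell, where 6.76% of genes were lower and 14.2% passed in all. Slc2a1 was at 210.5, 186 and 207 CPM in the Dnmt1 KO embryos and between 266 and 450 (median 388) in WT. The groups did not overlap, and the fall was 0.86 ± 0.15 on the log2 scale (adjusted p = 0.00046), which passed without any 1 library (adjusted p up to 0.0065) and missed the threshold with the Y-linked covariate (adjusted p = 0.011). Pgk1 was at 321.5, 352 and 335 CPM against 410 to 500 (median 468) in WT, a fall of 0.43 ± 0.10 (adjusted p = 0.00548). This call was lost without any 1 of the Dnmt1 KO embryos, WT 1, WT 6 or WT 7 (adjusted p up to 0.0434), and with the replicate number as a block (0.0286). Bnip3 (0.11), Pdk1 (0.16) and Pfkl (0.32) had positive log2 differences there that did not pass. Of the Dnmt1 KO reference cells of this class, 72.7% came from a cluster that held 0.305% of those of WT, the summed markers of the class were at 22251 to 26717 CPM against 32220 to 46524 (8 genes), and the mitochondrial share was 6.29% to 7.89% against 4.37% to 5.74%. Primordial germ cell markers were at 25.5 to 34.0 CPM (6 genes summed) against 12.8 to 23.9. The part of these in the member differences was not tested.

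In ExE mesoderm-like cells, the class with the highest WT level of Slc2a1, this gene alone of the 10 passed the test, where 13.2% of genes were lower and 25.3% passed in all. Slc2a1 was at 1138, 1146 and 835 CPM in Dnmt1 KO 1, 2 and 3, and between 1388 and 2518 (median 1733) in WT, without overlap. It fell by 0.74 ± 0.16 on the log2 scale (adjusted p = 0.00155), and missed the threshold without Dnmt1 KO 3 (-0.62, adjusted p = 0.019). Ldha (0.29, adjusted p = 0.0244), Pfkl (0.30, 0.0389) and Pgk1 (0.24, 0.0878) had positive log2 differences that did not pass. Here 88.6% of the Dnmt1 KO reference cells came from a cluster that held 0.472% of those of WT. The class markers were at 1852 to 2519 CPM (8 genes summed) in Dnmt1 KO and at 3804 to 5407 in WT, and the mitochondrial share was 3.32% to 4.22% against 2.35% to 2.99%. Markers of some but not all other types were higher than in WT, among them those of cardiomyocytes (619 to 739 CPM over 8 genes, against 254 to 394), NMP (61.3 to 78.8 over 8 genes, against 13.3 to 23.7), gut endoderm (80.8 to 119.7 over 8 genes, against 47.5 to 57.4) and primordial germ cells (50.6 to 58.2 over 6 genes, against 8.05 to 16.1). The part of these in the Slc2a1 difference was not tested.

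**Figure D4:**
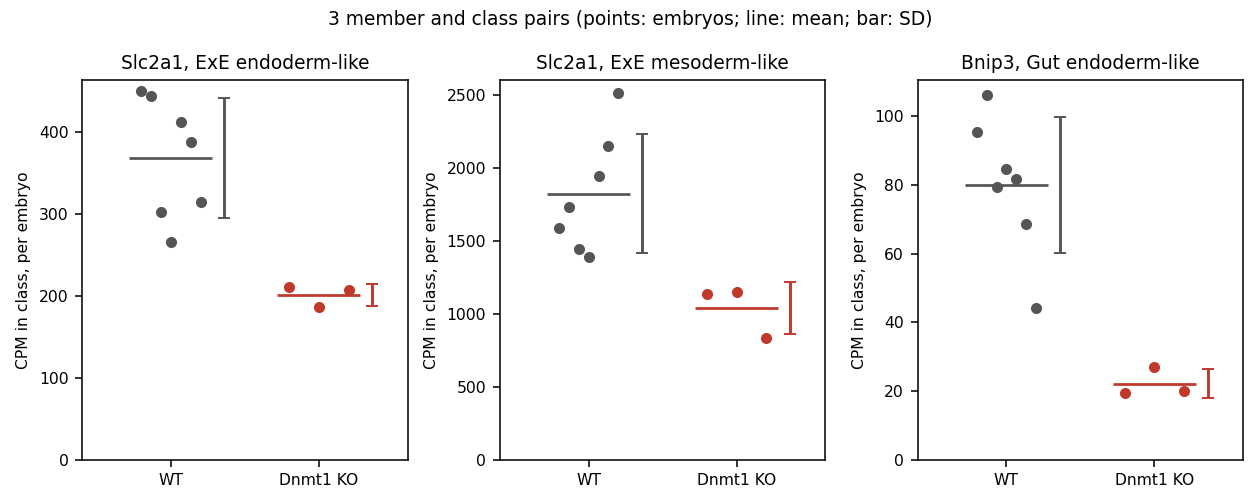
Slc2a1 in ExE endoderm-like and ExE mesoderm-like cells and Bnip3 in gut endoderm-like cells. The vertical axis is CPM in the class from 0, points are embryos (7 WT and 3 Dnmt1 KO), lines are means and bars are SD. In each panel the 3 Dnmt1 KO points lie below all WT points.

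In the immune-like class, whose Dnmt1 KO cells go against the name as given above, Slc2a1 rose and Pdk1, Bnip3 and Aldoa fell, where 8.91% of genes passed (3.89 percent higher and 5.02 percent lower). Slc2a1 was at 118.5, 117 and 121.5 CPM in Dnmt1 KO and at 57.9, 72.3 and 95.3 in the 3 WT embryos with enough cells, a log2 difference of 0.78 ± 0.17 (adjusted p = 0.00605). Pdk1 was at 7.999, 7.68 and 8.79 CPM against 17.3, 20.6 and 34.6 (-1.44 ± 0.34, adjusted p = 0.00843). Bnip3 was at 16.9, 26.1 and 17.4 CPM against 32.4, 40.5 and 57.4 (-0.97 ± 0.22, adjusted p = 0.00783), and Aldoa at 718, 701 and 647 against 883, 1113 and 1153 (-0.49 ± 0.11, adjusted p = 0.00728). These calls rested on single libraries. Without Dnmt1 KO 1 or 3 all 4 were lost, and without Dnmt1 KO 2 all but that of Bnip3. Leaving out WT 1 ended 3 of them (not Bnip3), WT 2 ended 3 (not Slc2a1) and WT 3 ended 3 (not Aldoa). Leaving out Dnmt3a KO 1 ended those of Aldoa, Pdk1 and Bnip3, Dnmt3b KO 2 those of Aldoa and Pdk1, and Dnmt3a KO 14 or Dnmt3b KO 11 that of Bnip3. The adjusted p then reached 0.0338 for Slc2a1, 0.056 for Pdk1, 0.0518 for Bnip3 and 0.0504 for Aldoa. Slc2a1 was also lost with the Y-linked (0.0335) and reference (0.0113) covariates, and Bnip3 with the replicate number as a block (0.0107). With Dnmt3b KO 1 and 2 kept separate Pdk1 (0.0118) and Aldoa (0.0101) were lost. Aldoa was lost as well without a low-count filter (0.0169), with the block (0.0149) and with the Y-linked covariate (0.0382).

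The Dnmt1 KO effect differed between the classes for most members. In a model over WT and Dnmt1 KO embryos with class by genotype terms, 7 of 10 members passed the test of that difference: Slc2a1 (adjusted p = 1.5e-06), Pgk1 (9.3e-06), Bnip3 (2.1e-05), Ldha (4.8e-05), Pfkl (0.000567), Pdk1 (0.00292) and Aldoa (0.00591). Of all genes, 31.2% passed. Vegfa (0.0177), Hk2 (0.0372) and Slc16a3 (0.0952) did not pass. Without the immune-like class 6 passed, Pdk1 being lost (0.0865), where 24.2% of all genes passed. For Slc2a1 the fitted differences were -0.86 and -0.74 in the ExE classes and 0.41 and 0.78 in gut endoderm-like and immune-like cells. For Bnip3 they were -1.76 in gut endoderm-like cells and 0.11 and 0.12 in the ExE endoderm-like and ExE mesoderm-like classes.

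Epiblast-like cells (240 to 296 per embryo) and ExE ectoderm-like cells (81 to 932) were present in Dnmt1 KO but too few in WT for a test. Epiblast-like cells had 290 ± 1.74 CPM of Slc2a1, 2047 ± 139 of Ldha and 12.8 ± 1.57 of Pdk1 (n = 3). ExE ectoderm-like cells had 192 ± 19.5 CPM of Slc2a1, 1380 ± 199 of Ldha, 158 ± 24.5 of Slc16a3 and 27.1 ± 4.41 of Pdk1 (n = 3). The single WT embryo with enough ExE ectoderm-like cells, WT 2, had 291, 2004, 275 and 44.5 CPM of the same genes.

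In Dnmt3a KO embryos no member passed the test, although all 10 had positive log2 differences, from 0.08 (Slc2a1) to 0.32 (Bnip3), as did 51.2% of all genes. The direction did not hold in 2 other fits: 8 of the 10 turned negative with the Y-linked covariate, all 4 Dnmt3a KO embryos being male and 6 of 7 WT embryos not, and 5 with the replicate number as a block. The Y-linked covariate rests mainly on WT 2 and Dnmt3b KO 12, as given above. edgeR's quasi-likelihood test gave 0 of 10 in whole embryos, where 0.229% of genes passed. At an unadjusted p under 0.05 there was 1, where 9.48% of genes passed that threshold, and DESeq2 gave 0. The median over the 11 entries was 0.16, against 0.01 over all genes. Pgk1 was at 825, 860, 997 and 1164 CPM in Dnmt3a KO 1, 2, 13 and 14, of which the last 2 were above the WT range. Bnip3 was at 93.0, 109, 94.0 and 128 CPM, and Ldha at 2015, 1968, 2247 and 2234 CPM, and for both genes 2 embryos were above the WT range. For each of the 10 members 1 or 2 of the 4 embryos exceeded every WT embryo and none was below, as for 33.3% of all genes tested. Dnmt3a KO 14, which had the highest level of the 4 for 7 members, also had the largest mitochondrial share of all libraries, 3.76%.

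Within classes, 0 of 170 pairs passed for Dnmt3a KO with edgeR's quasi-likelihood test, where 0.139% of all gene and class pairs passed. At an unadjusted p under 0.05 there were 68, where 9.91% of all pairs passed that threshold, and DESeq2 passed 3, all higher, where it passed 0.29% of all pairs as higher. The log2 difference was positive in 132 pairs and negative in 38, with a median of 0.21, while 50.9% of all pairs were positive. These pairs share embryos, and the sex difference between the groups given above applies to them. All 10 members had positive differences in the cardiomyocyte-like, endothelium-like, forebrain/midbrain-like, hindbrain/spinal cord-like, NMP-like, notochord-like and presomitic mesoderm-like classes, with medians from 0.18 to 0.74, while 8 of 10 were negative in erythroid-like (median -0.18) and immune-like cells (median -0.26) and 6 of 10 in ExE mesoderm-like cells (median -0.03). Bnip3 spanned -0.65 to 1.32 over the 17 classes, Pdk1 -0.52 to 1.123 and Slc16a3 -0.65 to 1.01.

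**Figure D5:**
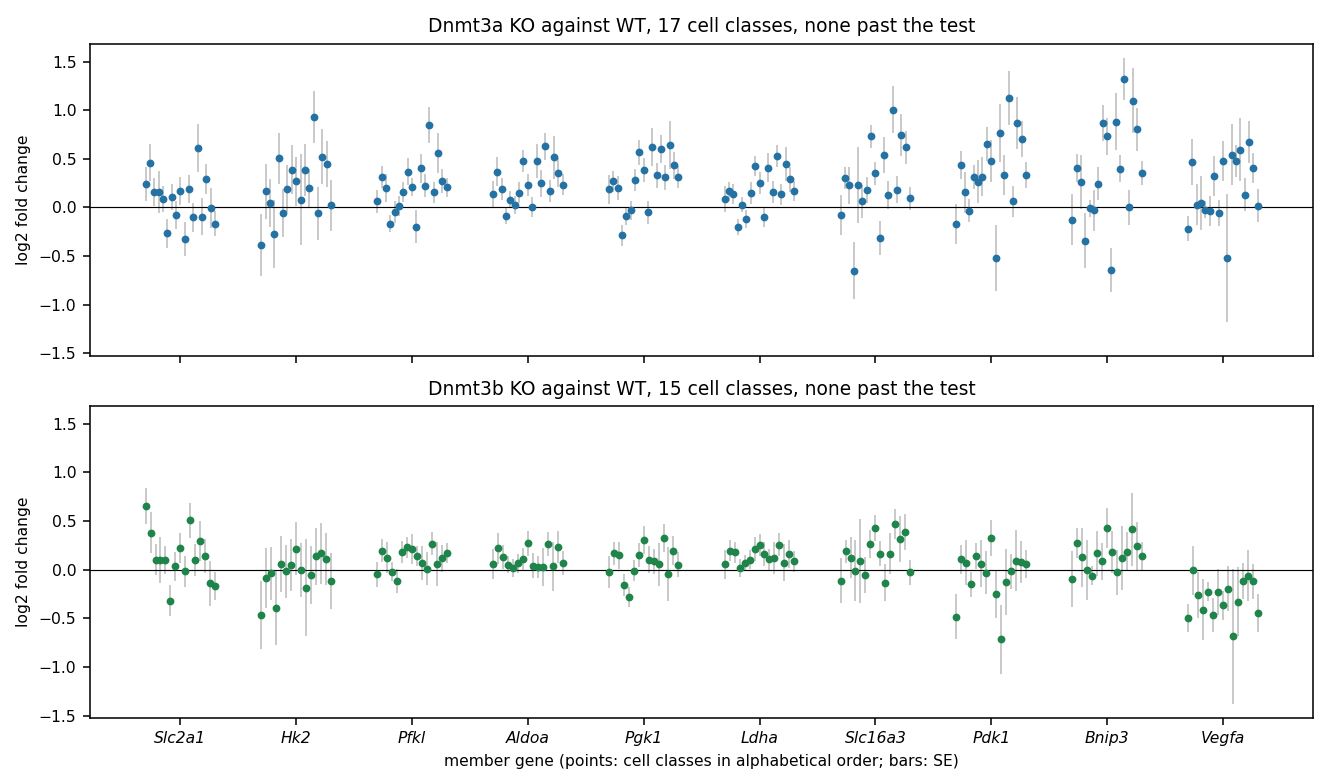
Member differences within cell classes in Dnmt3a KO (upper panel, 17 classes) and Dnmt3b KO (lower panel, 15 classes). The vertical axis is the log2 fold change against WT, each point is a class in alphabetical order within its member and bars are 1 SE. Most points lie above 0, 132 of 170 and 98 of 150, none passed the test, and the Vegfa points of Dnmt3b KO are all below 0.

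In Dnmt3b KO embryos, of which Dnmt3b KO 11 and 12 also had low Dnmt3a counts as given above, the members lay around the WT level. None of 10 passed in whole embryos with edgeR's quasi-likelihood test, where 1.99% of genes passed. There were 0 at an unadjusted p under 0.05, where 17.4% of genes passed that threshold, and 0 with DESeq2, and the log2 differences ran from -0.16 (Vegfa) to 0.13 (Slc16a3). Hk2 spread widely, at 44.6 CPM in Dnmt3b KO 11 and 33.0 in Dnmt3b KO 12. The libraries Dnmt3b KO 1 and 2, which share their barcodes, had 146.6 and 59.6 CPM of the same gene. Vegfa was at 25.7, 25.8, 20.03 and 13.97 CPM in Dnmt3b KO 1, 2, 11 and 12, the first 2 just above the WT range and the last below it.

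Within classes, 0 of 150 pairs passed for Dnmt3b KO with edgeR's quasi-likelihood test, where 0.736% of all pairs passed. At an unadjusted p under 0.05 there were 20, where 14.6% of all pairs passed that threshold, and DESeq2 gave 0. The log2 difference was positive in 98 pairs, and in 49.1% of all pairs. Aldoa and Ldha had positive differences in 15 of 15 classes, with medians of 0.07 and 0.12. Vegfa had negative ones in 15 of 15 classes, with a median of -0.26 and a range from -0.68 to -0.0034. In whole embryos these signs depended on the fit. Aldoa and Ldha turned negative with the Y-linked covariate (-0.10 and -0.0325), with the replicate number as a block (-0.11 and -0.0992) and without 1 library (lowest values -0.00636 and -0.0260), and Vegfa turned positive with the block (0.11) and without 1 library (highest value 0.0665). Whether single members differ in sign across classes beyond their spread was not tested. The 3 KO groups were compared with the same 7 WT embryos, so their differences share those samples.

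Of 12 HIF pathway regulators, 1 rose and 2 fell in whole Dnmt1 KO embryos, a share near the 23.3% of all genes that passed. Egln1, the main prolyl hydroxylase that marks HIF for destruction, fell from a mean of 56.4 CPM to 11.6, a log2 difference of -2.22 ± 0.32 (adjusted p = 4.2e-05). It fell in all 4 classes tested, with log2 differences of -1.35 in ExE endoderm-like, -2.64 in ExE mesoderm-like, -2.73 in gut endoderm-like and -1.43 in immune-like cells. Epas1, which encodes HIF-2α, rose by a log2 difference of 0.91 (2.90 to 5.18 CPM), and Arnt2, a HIF partner, fell by 0.95 on the log2 scale. Hif1a (0.26 ± 0.16, adjusted p = 0.226), the oxygen-sensitive HIF subunit, is named here after its value was seen and did not pass. The median over the list was 0.10, against 0.02 over all genes.

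Among other glycolytic enzymes and carriers 8 of 22 passed the test in whole Dnmt1 KO embryos, 7 lower and 1 higher, where 23.3% of all genes passed (11 percent lower). Of the 14 enzymes 3 fell in whole embryos, Tpi1 (triose phosphate isomerase, -0.49), Pfkfb3 (-1.505) and Aldoc (-0.89), and 1 rose, Pfkfb2 (0.79). Their median was -0.30. In gut endoderm-like cells 6 of 13 tested fell and 0 rose, where 6.53% of all genes were lower, among them Pgam1 (-0.57), Pfkfb3 (-3.27), Pkm (-0.46) and Tpi1 (-0.50), with a median of -0.46. In ExE mesoderm-like cells 4 fell and 3 rose of 12, where 25.3% of all genes passed, with Pfkp (-0.90), Pgam1 (-0.35) and Hk1 (-0.80) lower and Aldoc (2.12, from 0.406 to 1.53 CPM) higher. Of 8 other carriers of glucose, lactate and pyruvate, 4 fell in whole embryos and 0 rose, with a median of -0.67. They were Slc2a4 (-1.73, from 0.753 to 0.217 CPM), Slc16a7 (-1.42), Slc2a8 (-0.57) and the lactate and pyruvate carrier Slc16a1 (-0.78, from 182 to 101 CPM). Slc16a1 fell by 1.62 in ExE endoderm-like cells, from 741 to 238 CPM, and the glucose transporter Slc2a3 fell by 1.19 in ExE mesoderm-like cells, from 517 to 215 CPM.

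Of 26 hypoxia response genes outside the members, 2 rose and 5 fell in whole Dnmt1 KO embryos, also a share near that of all genes, with a median of -0.33. Gbe1, the glycogen branching enzyme, rose by a log2 difference of 1.20 and Ndrg1 by 2.26, whereas Bnip3l, the paralogue of Bnip3, fell by 0.65 and the lipid droplet gene Hilpda by 0.69. Pfkfb3, which is also counted among the glycolytic enzymes, and 2 more genes fell as well. In gut endoderm-like cells 1 rose (Gbe1, 2.09) and 5 fell of 24, where 13.9% of all genes passed (6.53 percent lower). In ExE endoderm-like cells 3 rose and 2 fell of 24, where 14.2% passed (6.76 percent lower). In ExE mesoderm-like cells 5 rose and 8 fell of 25, where 25.3% passed (13.2 percent lower), with the collagen-modifying genes Plod2 (-1.59) and P4ha1 (-0.80) and the peptide hormone Adm (-1.44) among the lower ones. Of 9 VEGF pathway genes only Vegfc fell in whole embryos, by 1.76 on the log2 scale, and 0 rose. Of 6 BNIP3 family and mitophagy genes found in the files, Sqstm1 rose (0.86) and Bnip3l fell.

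Of 13 mitochondrially encoded genes 10 rose and 0 fell in whole Dnmt1 KO embryos, where 12.3% of all genes were higher, among them mt-Nd4 (0.71), mt-Nd1 (0.68) and mt-Co1 (0.54), with a list median of 0.68. The larger mitochondrial share of these libraries, 3.12% to 3.32% against 1.84% to 2.59% in WT, is computed from mitochondrially encoded genes and is no separate observation. The cause of the rise was not tested. Of 27 nuclear oxidative phosphorylation genes 1 rose, Atp5c1 (0.41), and 0 fell, with a median of 0.03. Of 24 genes of pyruvate dehydrogenase and the TCA cycle 2 fell, Pdk3 (-0.47) and Sdhc (-0.34), and 0 rose. In ExE endoderm-like cells 8 of 22 of these fell and 0 rose, where 6.76% of all genes were lower, among them Idh3b (-0.47), Sdhb (-0.52), Suclg1 (-0.58) and Cs (-0.34). Of the 7 testis paralogues of glycolytic enzymes and pyruvate dehydrogenase (Pdha2) 3 passed the low-count filter, and the other 4 were not tested. Their level in KO can decide this filter, so that the direction of the 3 is no result. Pdha2 stood at 0.0116 CPM in WT, 5.11 in Dnmt1 KO and 3.63 in Dnmt3b KO, and Ldhc at 0.951 CPM in WT and 3.01 in Dnmt1 KO. Of 15 housekeeping genes 0 passed, with a median of 0.00, but Pgam1 and Sdha among them are also counted in the glycolytic enzyme and TCA cycle lists. Of 12 dissociation and stress genes 2 rose (Dnajb1, 0.60, and Junb, 0.85) and of 10 integrated stress response genes 2 rose (Chac1, 2.69, and Sesn2, 1.58), and 0 fell in either list. Apart from the targeted genes, no gene of these lists passed in Dnmt3a KO, and in Dnmt3b KO Pdha2 alone did.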

How the data were processed

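Single embryos were dissociated and sequenced with 10x Genomics 3′ v3 chemistry. The authors deposited raw UMI counts per gene and barcode for each library, made with Cell Ranger (5.0.0 in the study's methods; the file headers give 3.1.0 for 17 libraries and 5.0.0 for 1) against mm10, 4 libraries against a combined human and mouse reference. Of 162336 barcodes, 128881 held at least 1500 mouse UMIs and 116367 passed limits of 30% mitochondrial and 35% ribosomal counts, as in the study. The barcodes with the highest Scrublet doublet scores (an expected 0.8% per 1000 cells, 7737 in all) were removed. Up to 1500 cells per library were clustered (scanpy 1.11.5, 2500 variable genes, 50 components, 30 neighbours, Leiden resolution 2) without the members and the other listed genes, and clusters were named from 168 marker entries.

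Counts were summed per embryo, or per embryo and class with at least 25 cells in at least 3 embryos, and tested with edgeR 4.0.16 (quasi-likelihood, TMM, filterByExpr, Benjamini-Hochberg over all genes of the fit, R 4.3.3). A gene passed the test at an adjusted p under 0.01. All groups entered a whole-embryo fit and shared 1 estimate of the spread. CPM were computed from the same sums. The scripts were tested on simulated data. The labels do not say which embryos share a litter, so p-values of the KO comparisons measure the spread between embryos. The WT class test and the class by genotype test hold embryo as a block, so their p-values measure the spread within embryos. The alternatives were DESeq2 1.42.0, other scaling, filters and cell sets, a replicate block, covariates for Y-linked counts and for the reference, and leaving out each library. The sets with adjusted p under 0.05 and without the immune-like class were added after seeing the data.

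The members and gene lists were chosen with earlier results of these data known. Named genes are the 10 members, the 3 targeted genes, the 5 genes with class profiles closest to the members, and per list and comparison at most 4 genes past the test with the smallest adjusted p. Hif1a was named outside this rule. Kept UMIs per library ran from 36606365 to 234638944.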

Additional observations from a re-analysis of the deposited data

Results flagged for a closer look

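In 20 groups of 4 to 10 embryos, 1 for each member and whole-embryo group of that size, 3 had an embryo whose gap to the nearest other was large against the range of its group, and chance gives about 1 such group in 20. WT 1 had 37.9 CPM of Hk2, while the other WT embryos had 60.3 to 69.1. WT 2, the male WT embryo, had 36.4 CPM of Pdk1, while the others had 19.2 to 26.3, and 937 CPM of Pgk1, while the others had 737 to 813.

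The Dnmt1 KO effect differed between cell classes in edgeR's class by genotype test for Slc2a1 (adjusted p = 1.5e-06), Pgk1 (9.3e-06), Bnip3 (2.1e-05), Ldha (4.8e-05), Pfkl (0.000567), Pdk1 (0.00292) and Aldoa (0.00591), where 31.2% of all genes passed. Without the immune-like class Pdk1 did not pass (adjusted p = 0.0865).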

How the results depend on the processing

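For whole Dnmt1 KO embryos the count of members past the test was 0, and it became 3 with DESeq2, 2 without a low-count filter (16.5% of all genes), 3 with the Y-linked covariate, 4 without ExE ectoderm-like and ExE endoderm-like cells, 2 without erythroid-like cells (25.2% of all genes) and 7 at an adjusted p under 0.05 (36.7% of all genes). Leaving out 1 library gave 0 to 2. Within classes the Dnmt1 KO count of 12 became 6 with the Y-linked covariate (9.2% of all pairs), 3 with at least 50 cells (19% of all pairs), where gut endoderm-like and immune-like cells were not tested and the 3 pairs of the other classes passed again, and 19 at an adjusted p under 0.05 (28.4% of all pairs), and leaving out 1 library gave 3 to 13. The Dnmt3a KO class count of 0 became 3 with DESeq2, 5 without a filter (0.227% of all pairs) and 2 at an adjusted p under 0.05 (0.4% of all pairs), and leaving out 1 library gave 0 to 1, as it did for Dnmt3b KO. The class difference count of 7 became 2 with at least 50 cells, where only 2 classes remained, and leaving out 1 library gave 5 to 8. The WT class count of 103 stayed within 95 to 109. The causes were not tested unless stated.

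Same-numbered embryos did not deviate together: 3 of 13 pairs had a correlation over 0.1, in a range from -0.23 to 0.19. With the number as a replicate block the counts were 0, 0 and 0 in whole embryos, and 12, 0 and 0 within classes. Of the 12 Dnmt1 KO pairs 9 were shared with the fit without the block. Pgk1 in ExE endoderm-like (adjusted p = 0.0286) and Aldoa (0.0149) and Bnip3 (0.0107) in immune-like cells were lost, and Pfkl and Slc2a1 in gut endoderm-like and Slc16a3 in immune-like cells came past the test. Log2 differences that changed sign with this block were, in Dnmt3a KO, Pdk1 -0.21, Pfkl -0.0476, Aldoa -0.0504, Pgk1 -0.0186 and Ldha -0.0305, and in Dnmt3b KO, Hk2 0.99, Pfkl -0.0690, Vegfa 0.11, Aldoa -0.11 and Ldha -0.0992.

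With the Y-linked covariate the sign changed in Dnmt3a KO for Hk2 (-0.45), Pdk1 (-0.24), Vegfa (-0.16), Slc16a3 (-0.21), Aldoa (-0.11), Pgk1 (-0.12), Ldha (-0.0590) and Bnip3 (-0.13), and in Dnmt3b KO for Pfkl (-0.00201), Slc16a3 (-0.11), Aldoa (-0.10), Pgk1 (-0.21), Ldha (-0.0325) and Bnip3 (-0.19). It changed with the reference covariate for Hk2 (0.0564) and Pgk1 (-0.00552) in Dnmt3b KO, with Dnmt3b KO 1 and 2 kept separate for Hk2 (0.18) and Pdk1 (0.0247), and without ExE ectoderm-like and ExE endoderm-like cells for Slc2a1 in Dnmt1 KO (0.00267). None of these members passed the test before or after. The Y-linked covariate rests mainly on WT 2 and Dnmt3b KO 12, the embryos through which sex varied within groups. Leaving out 1 library turned the sign of Hk2 in Dnmt3a KO (from -0.20 to 0.24) and, in Dnmt3b KO, of Aldoa (-0.00636 to 0.16), Hk2 (-0.44 to 0.26), Ldha (-0.0260 to 0.14), Pdk1 (-0.17 to 0.11), Pgk1 (-0.0749 to 0.17) and Vegfa (-0.21 to 0.0665).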
